A study of Callithrix jacchus with 4 samples.

Results

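The collagen genes of adult common marmoset (Callithrix jacchus) frontal cortex were taken as every row of the gene count table whose symbol has the form COL, a number, A and a number. There were 44 such genes of 35108 in the table. By the type of structure they build, 11 belong to the fibrillar collagens, 6 to the basement membrane collagens (the COL4 genes) and 27 to other types. RNA was sequenced from 4 libraries. Of these, 2 were labelled wild type (WT), with no sex given, and 2 were labelled as carrying an APP transgene (TG), both from females. The series title describes the transgene as mutant amyloid precursor protein driven by the human EF1α promoter, a promoter active in most cell types. The labels do not state whether each library is a different animal. The p-values therefore measure the spread between these libraries, and for the TG pair nothing used here shows whether that spread is between animals or technical. The 4 libraries are called WT1, WT2, TG1 and TG2.

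Collagens are built from 3 chains wound into a triple helix. Fibrillar collagens pack into the tough fibres of connective tissue, which in the brain are found in the meninges and around larger vessels rather than in the neuropil. COL4 chains assemble into the sheet of the basement membrane, which wraps brain endothelium and mural cells and on which astrocyte endfeet rest. The remaining types bind to fibrils, form beaded filaments or short networks, or span the cell membrane, and some of them are made by neurons. The product of COL25A1 and a fragment of the COL18A1 product have been found in the amyloid plaques of Alzheimer's disease.

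Library totals ranged from 12657323 to 18932180 counts, and a count of 3, taken here as the floor, corresponded to 0.166 to 0.232 CPM (read counts scaled to library size with TMM factors). TG2 stood apart from the other 3 libraries. Chi-square per degree of freedom over genes was 41.4 to 53.1 for the pairs with TG2 and 8.25 to 14.2 for the others. The summed level of 10 astrocyte markers was 8324, 6973 and 7489 CPM in WT1, WT2 and TG1 and 2617 CPM in TG2. Much of that sum was 1 gene, SLC1A2, at 4921, 4173, 4337 and 999 CPM. GFAP did not follow, at 695, 517, 757 and 635 CPM. The summed level of 7 excitatory neuron markers was 5343 to 6408 CPM in all 4 libraries. APP itself was at 1822 and 2182 CPM in WT1 and WT2 and at 2143 and 2748 CPM in TG1 and TG2, a log2 fold change of 0.29 ± 0.22 (SE over 2 and 2 libraries; adjusted p = 0.798). Counts of Y-linked KDM5D were 2 and 243 in WT1 and WT2 and 0 in both TG libraries, so the genotypes were not balanced for sex and the WT libraries differ by more than a repeat of 1 sample would.

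Every collagen gene had at least 1 count in every library, and 33 of the 44 passed the filter on low counts. None of the 33 passed an adjusted p of 0.05 between transgenic and wild-type cortex in edgeR's quasi-likelihood test, against 0% of the 16385 genes tested. At an unadjusted p under 0.05 there were 0 collagen genes, against 5.62% of all genes (3.23% as higher and 2.39% as lower). DESeq2 called 0 of 44 collagen genes (background 0.205%) and limma-voom 0 of 33. Of the 33, 21 were higher and 12 lower in sign, and the median log2 fold change was 0.14, against -0.002 over all genes tested. By sign 49.6% of all genes were higher. The direction turned without WT1 (13 higher and 20 lower, median -0.05) and without TG1 (14 higher and 19 lower, median -0.25). Both TG libraries lay above both WT libraries in 5 collagen genes (15.2%), against 19.5% of all genes. They lay below in 4 (12.1%), against 19.4%. These shares did not exceed the background. Leaving out a library gave 0 collagen genes past the adjusted threshold without WT1, without WT2 or without TG2 (background 0%, 0% and 0.0175%). At an unadjusted p under 0.05 these fits had 0 of 38, 1 of 37 and 2 of 38 collagen genes (background 1.54%, 2.49% and 4.85%). The fit without TG1 is described with the COL4 genes.

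**Figure D1:**
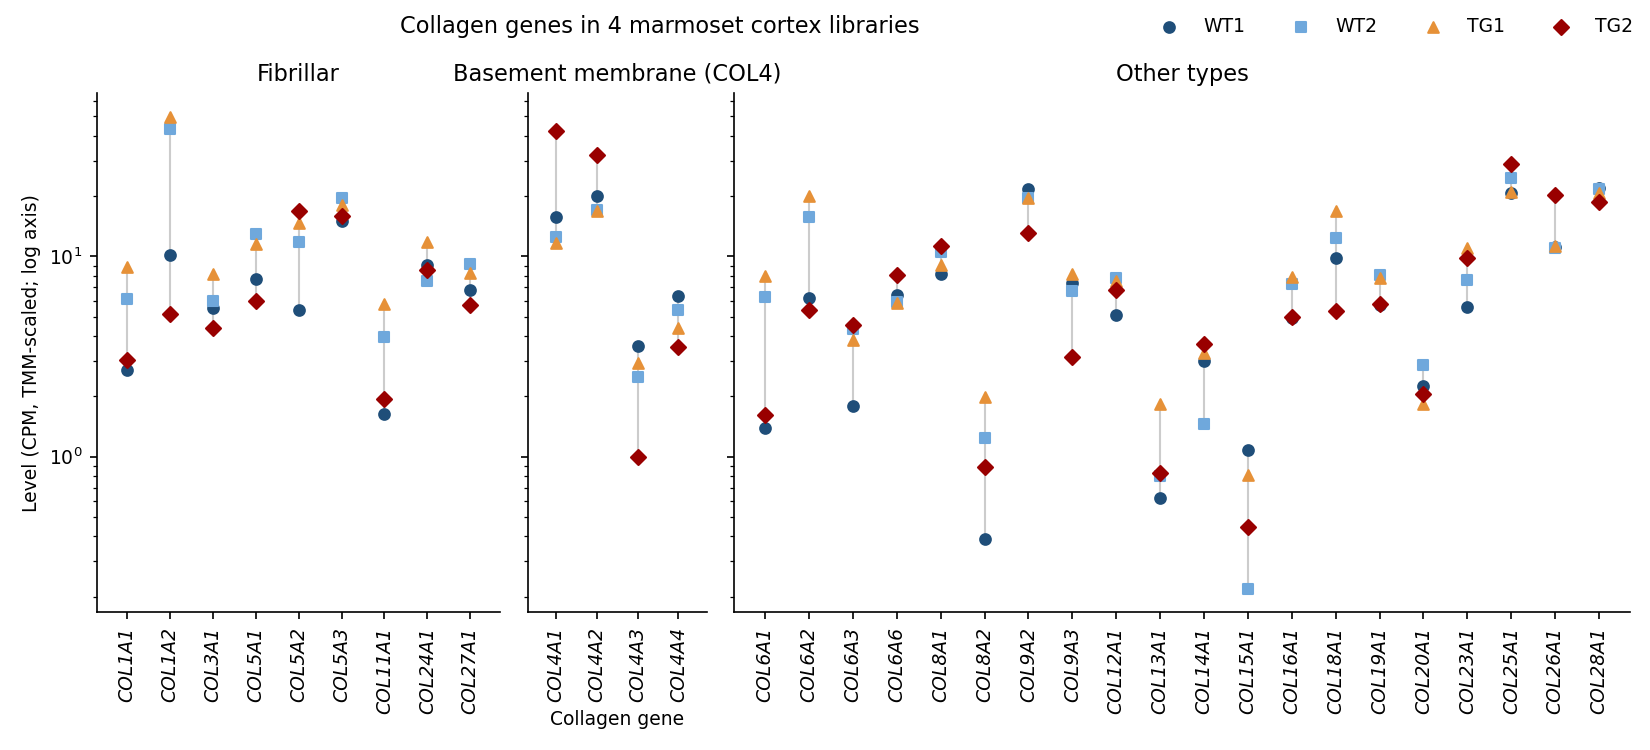
Level of each of the 33 collagen genes tested (x axis) in CPM on a log axis (y axis), with 1 point per library and a grey line from the lowest to the highest library. COL1A2, COL6A1 and COL6A2 are high in WT2 and TG1 and low in WT1 and TG2, and COL4A1 and COL4A2 are highest in TG2.

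Most collagen genes differed more within the groups than between them. In 20 of 33 genes (60.6%) WT1 and WT2 were further apart on the log2 scale than the group means, against 46.6% of all genes. In 26 of 33 (78.8%) TG1 and TG2 were further apart than the group means, against 64.4%. The fibrillar genes showed this in 8 of 9 for either group, while among the 4 COL4 genes tested it held for 0 in wild type and 3 in the transgenic pair. WT2 was at least 2 times WT1 in 8 collagen genes (24.2%), a step that 2.64% of all genes showed. TG1 was at least 2 times TG2 in 10 (30.3%), against 8.21%. Both steps held for COL1A1, COL1A2, COL11A1, COL6A1, COL6A2 and COL8A2, which is 6 of 33, against 1.06% of all genes. In the other direction, TG2 was at least 2 times TG1 in COL4A1 only (background 4.06%), and WT1 at least 2 times WT2 in COL14A1 and COL15A1 (background 2.64%). The highest library was WT1, WT2, TG1 and TG2 in 5, 6, 13 and 9 collagen genes, against 25.3%, 19.9%, 19.7% and 35.1% of all genes. The lowest was WT1, WT2, TG1 and TG2 in 14, 4, 4 and 11, against 24.1%, 20.1%, 20.3% and 35.5%. The highest library was at least 2 times the lowest in 16 of 33 (background 23.1%). WT2 was above WT1 in 21 of 33 (background 49.9%) and TG1 above TG2 in 23 (background 49.5%). These counts describe 4 libraries and are not tests. The background was not matched for level, and COL8A2 and COL15A1 had only 5 to 27 and 3 to 14 reads in a library.

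Among the fibrillar genes, COL1A2 varied most between the libraries of a group. It encodes a chain of type I collagen, the main protein of scar and skin. COL1A2 was at 10.1 and 43.2 CPM in WT1 and WT2 and at 49.6 and 5.15 CPM in TG1 and TG2. The high and the low library of each group thus differed by 4.26 times in wild type and 9.63 times in the transgenic pair, and the groups overlapped fully. The log2 fold change between genotypes was 0.03 ± 1.11 (SE over 2 and 2 libraries; adjusted p = 0.996), with a 95% interval of -2.76 to 2.82. COL1A1 was at 2.71 and 6.14 CPM in the WT libraries and at 8.89 and 3.05 CPM in the TG libraries, the same order of pairs with smaller steps. Its log2 fold change was 0.42 ± 0.64 (adjusted p = 0.873). Without TG1 the log2 fold changes of COL1A2 and COL1A1 were -2.38 (adjusted p = 0.0937) and -0.54, and without TG2 they were 0.89 and 0.997.

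COL1A1 and COL1A2 encode the chains of 1 heterotrimer, but their reads did not keep a fixed ratio. The COL1A2 to COL1A1 count ratio was 3.74 (exact 95% counting interval 2.56 to 5.6) in WT1 and 7.04 (5.59 to 8.95) in WT2. It was 5.58 (4.59 to 6.83) in TG1 and 1.69 (1.20 to 2.4) in TG2. The ratio is not corrected for length and is compared only between libraries, and its interval covers counting error alone. TG2 lay below the intervals of the other 3 libraries.

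Type III and type V chains, which are built into type I fibrils, did not all share this order of libraries. COL3A1 was at 5.49 and 5.997 CPM in the WT libraries and at 8.16 and 4.38 CPM in the TG libraries, so that both wild-type values lay between the transgenic ones. COL5A1 was at 7.74, 12.9, 11.5 and 5.98 CPM in WT1, WT2, TG1 and TG2. Its partner chain COL5A2 was at 5.42 and 11.8 CPM in the WT libraries and at 14.7 and 16.9 CPM in the TG libraries. COL5A2 was the 1 fibrillar gene with both transgenic libraries above both wild-type libraries, and it had the smallest p of the class in edgeR (unadjusted p of 0.0743, adjusted p = 0.789). Its log2 fold change was 0.88 ± 0.40 (SE, n = 2 per group). The sign did not depend on 1 transgenic library, with 0.97 without TG1 and 0.77 without TG2. Its size depended on the wild-type library, with 0.42 without WT1 and 1.55 without WT2. The COL5A2 to COL5A1 count ratio was 0.70 and 0.91 in wild type, 1.27 in TG1 and 2.82 (2.26 to 3.55) in TG2.

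COL11A1, whose chain joins type V and type II fibrils, was at 1.62 and 3.95 CPM in the WT libraries and at 5.81 and 1.94 CPM in the TG libraries, high in WT2 and TG1 as COL1A2 was. COL24A1 was at 9.05 and 7.53 CPM and at 11.8 and 8.53 CPM, and COL27A1, a collagen of cartilage, at 6.81 and 9.14 CPM and at 8.23 and 5.70 CPM. COL5A3 varied least of the class, at 15.01 and 19.5 CPM in the WT libraries and at 18.2 and 15.8 CPM in the TG libraries. Over the 9 fibrillar genes tested the median log2 fold change was 0.12, with 6 higher and 3 lower in sign. That median was 0.50 without TG2 and -0.49 without TG1, and it was -0.05 without WT1 and 0.19 without WT2. Its sign thus depended on which library was left out, in either group.

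The genes of type VI collagen, which forms beaded filaments beneath cells of connective tissue, followed the libraries as type I did. COL6A1 was at 1.39 and 6.29 CPM in the WT libraries and at 7.94 and 1.61 CPM in the TG libraries. COL6A2 was at 6.19 and 15.8 CPM and at 19.99 and 5.43 CPM. Both were therefore high in WT2 and TG1, and their log2 fold changes were 0.29 ± 0.96 and 0.20 ± 0.72 (SE over 2 and 2 libraries; adjusted p = 0.945 and 0.950). COL6A3, the third chain of the classical trimer, did not follow them in TG2. It was at 1.78 and 4.32 CPM in the WT libraries and at 3.82 and 4.54 CPM in TG1 and TG2. COL6A6, an alternative to the COL6A3 chain, stayed between 5.88 and 8.08 CPM.

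Markers of fibroblasts, the cells of the meninges and perivascular space that make type I and type VI collagen, moved with these genes in sum, but not each of them. All 9 markers on the list were detected in every library and none was at 0. Their summed level was 117 and 239 CPM in WT1 and WT2 and 331 and 107 CPM in TG1 and TG2. The summed level of the 9 fibrillar genes was 63.99 and 120.2 CPM in the WT libraries and 136.8 and 67.5 CPM in the TG libraries, in the same order of pairs. The GABA transporter gene SLC6A13, which marks arachnoid and perivascular fibroblasts, was at 3.48, 54.6, 59.5 and 3.60 CPM in WT1, WT2, TG1 and TG2. The organic anion transporter gene SLC22A6 was at 0.696, 9.73, 18.1 and 1.16 CPM. Both were among the markers with the widest steps and were picked after their values were seen. TG1 was above TG2 in 9 of 9 markers (background 49.5%), and WT2 above WT1 in 6 of 9 (background 49.9%). The exceptions in the WT pair were PDGFRA at 60.6 and 45.9 CPM, FBLN1 at 13.8 and 11.9 CPM and LUM at 3.02 and 2.85 CPM in WT1 and WT2. Of the 9 markers, 3 also stand on the list of fibril partners below and 1 marks oligodendrocyte precursors. The part of fibroblast content in the collagen values was not tested. In bulk tissue, fewer cells of a type and less RNA per cell cannot be told apart.

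**Figure D2:**
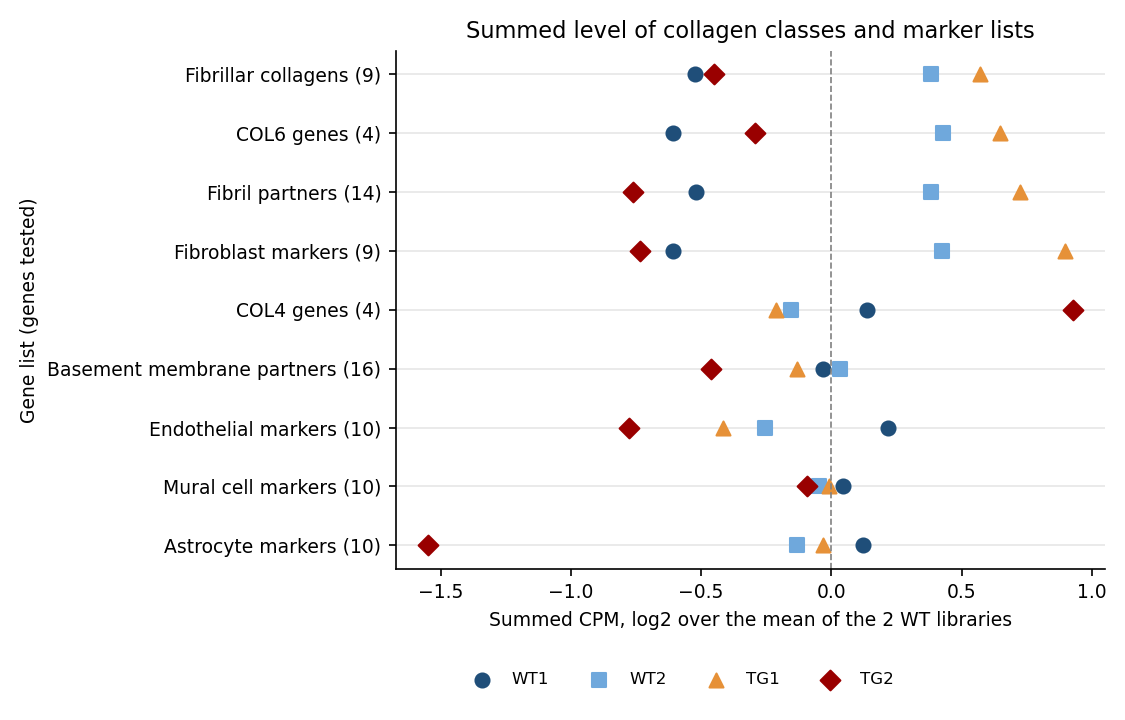
Summed CPM of collagen classes, partner lists and cell type markers in each library, as log2 over the mean of WT1 and WT2 (x axis), with the number of genes summed in brackets. Fibrillar and COL6 genes lie with the fibroblast markers (WT2 and TG1 to the right, WT1 and TG2 to the left), while COL4 genes lie to the right in TG2 (0.93), where endothelial markers lie to the left (-0.78).

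The basement membrane genes showed another order of libraries. COL4A1 and COL4A2 encode the chains of the trimer found in nearly all basement membranes, and mutations in either cause small vessel disease of the brain. COL4A1 was at 15.8 and 12.4 CPM in the WT libraries and at 11.7 and 42.3 CPM in TG1 and TG2. COL4A2 was at 19.96 and 16.97 CPM in the WT libraries and at 16.8 and 32.0 CPM in the TG libraries. TG1 was the lowest of the 4 libraries for both genes and TG2 the highest, at 2.999 and 1.73 times the wild-type mean. Over both transgenic libraries the log2 fold changes were 0.94 ± 0.59 and 0.40 ± 0.34 (SE, n = 2 per group), with an adjusted p of 0.790 and 0.811 in edgeR.

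Without TG1, the fit set TG2 against both wild-type libraries, with TG2 assumed to vary as they do. For COL4A1 it gave 1.58 ± 0.21 on the log2 scale (SE; adjusted p = 0.00363 in edgeR) and for COL4A2 0.79 ± 0.20 (adjusted p = 0.0448). COL26A1 was the third collagen gene to pass (0.87 ± 0.20, adjusted p = 0.0361), all 3 as higher. That is 3 of the 37 collagen genes tested in that fit (8.11%), while 9.92% of all genes passed there and 4.52% passed as higher. At an unadjusted p under 0.05 there were 10 of 37, against 26.6% of all genes. The fit compares 1 library with the wild type, not the genotypes. Without TG2 the log2 fold changes of COL4A1 and COL4A2 were -0.27 and -0.14.

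The reads of the 2 partner chains also stood in another ratio in TG2. The COL4A1 to COL4A2 count ratio was 0.79 (exact 95% counting interval 0.66 to 0.95), 0.73 (0.60 to 0.90) and 0.70 (0.57 to 0.86) in WT1, WT2 and TG1. In TG2 it was 1.32 (1.19 to 1.48), above the other 3 intervals. The TG2 interval also lay outside the other 3 for COL1A2 to COL1A1 (below) and for COL5A2 to COL5A1 (above). Not every pair of partner chains stood apart in this way, as some TG2 intervals overlapped that of WT1. The COL4A4 to COL4A3 ratio was 3.56 (2.08 to 6.38) in TG2 and 1.78 (1.23 to 2.62) in WT1. For COL6A2 to COL6A1 it was 3.38 (2.21 to 5.31) and 4.44 (2.64 to 7.88). For COL9A2 to COL9A3 it was 4.16 (3.10 to 5.65) and 2.97 (2.34 to 3.79), while the TG1 interval lay below that of TG2, at 2.39 (1.91 to 3.01). Most markers of the vascular cells that make the basement membrane were not higher in TG2. The summed level of 10 endothelial markers, none of them at 0, was 435 and 314 CPM in the WT libraries and 281 and 219 CPM in TG1 and TG2. That of 10 mural cell markers, none at 0, was 247 and 231 CPM and 237 and 224 CPM. TG2 was the lowest library for 6 of the 10 endothelial and 9 of the 10 mural markers (background 35.5%). The other 4 endothelial markers (CLDN5, PECAM1, EGFL7 and CDH5) were lowest in TG1 (background 20.3%). In each list 1 marker was highest in TG2 (background 35.1%). The endothelial cadherin gene CDH5 was at 11.9, 13.2, 9.48 and 21.8 CPM in WT1, WT2, TG1 and TG2, with TG1 lowest and TG2 highest as for COL4A1. The pericyte gene RGS5 was at 181 and 174 CPM in the WT libraries and at 179.8 and 194 CPM in the TG libraries, and made up most of the mural sum. The median deviation of log2 CPM from the wild-type mean was -1.07 for the mural markers there, although their sum moved little. The part of vascular cell content in the COL4 values was not tested.

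COL4A3 and COL4A4, chains of the type IV trimer best known from the kidney glomerulus, lay on the other side. COL4A3 was at 3.56 and 2.49 CPM in the WT libraries and at 2.94 and 0.997 CPM in the TG libraries, with TG2 the lowest. COL4A4 was at 6.34 and 5.41 CPM in the WT libraries and at 4.41 and 3.54 CPM in the TG libraries, with no overlap between the groups. Its log2 fold change was -0.57 ± 0.30 (SE, n = 2 per group), and it was -0.73 without TG1 and -0.42 without TG2. The unadjusted p in edgeR was 0.111 and the adjusted p 0.789. The X-linked pair COL4A5 and COL4A6 did not pass the filter, at 3 to 11 and 7 to 12 counts. Over the 4 COL4 genes tested, 2 were higher and 2 lower in sign.

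Several collagen genes lie side by side in the genome, and the COL4 pairs are known to be read in opposite directions from a shared promoter region. In the RefSeq gene table of the marmoset assembly calJac240_pri, where all 44 genes were found by symbol, 6 pairs of collagen genes were direct neighbours among protein-coding genes. That assembly need not be the one behind the counts. The pairs were COL4A1 with COL4A2, COL4A3 with COL4A4, COL4A5 with COL4A6, COL6A1 with COL6A2, COL6A5 with COL6A6, and COL9A1 with COL19A1. In 4 of the 6 the same library was the highest for both genes, and no share for unrelated pairs of genes is given here. COL9A1 with COL19A1 is among the 4, but COL9A1 did not pass the filter, with 4 to 17 counts. COL19A1 was at 8.12 CPM in WT2 against 7.79 CPM in TG1. COL6A1 and COL6A2 deviated from the wild-type mean of log2 CPM by 1.36 and 1.003 in TG1 and by -0.85 and -0.85 in TG2. COL4A1 and COL4A2 deviated by -0.26 and -0.13 in TG1 and by 1.58 and 0.79 in TG2. COL6A5 and COL6A6 did not share an order, and COL6A5 had only 6 to 15 counts.

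**Figure D3:**
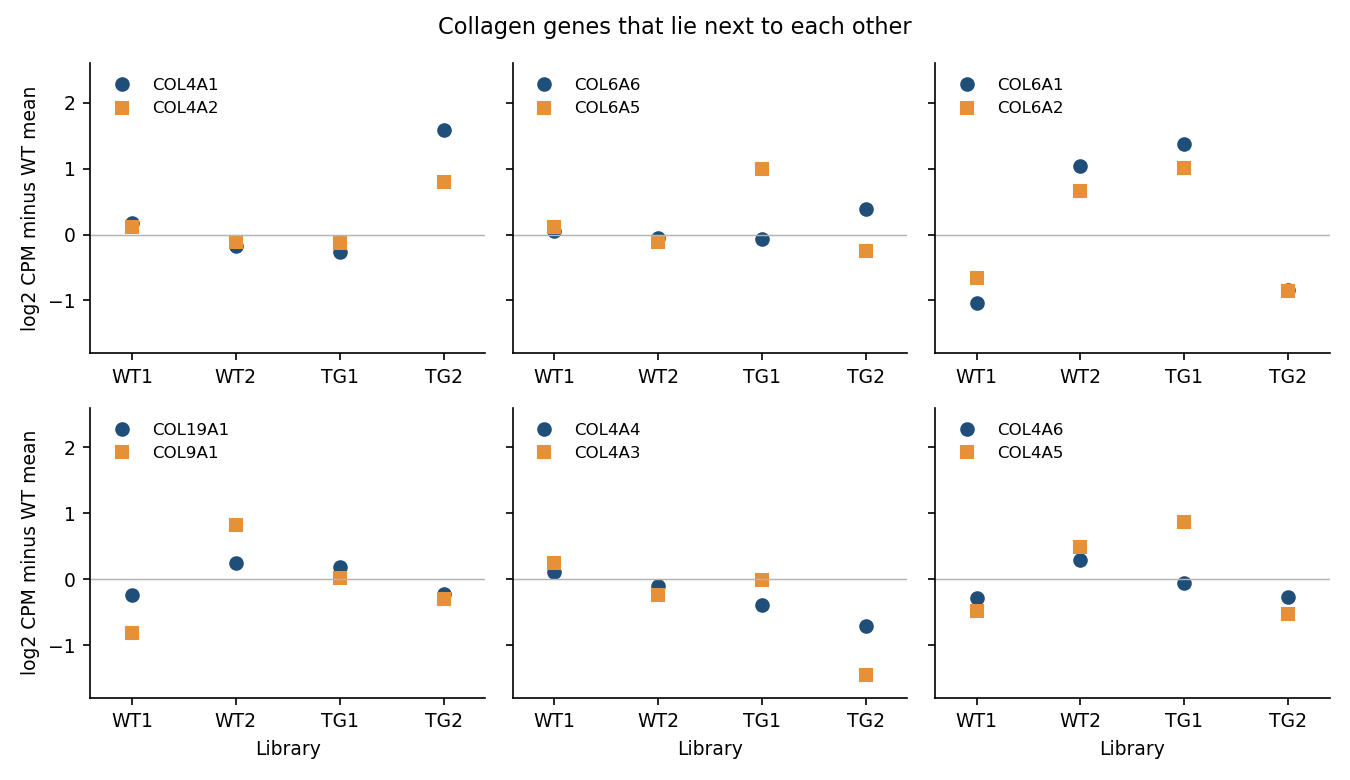
Deviation of log2 CPM from the wild-type mean (y axis) in each library (x axis) for the 6 pairs of neighbouring collagen genes, with circles for the gene named first and squares for the other. COL4A1 and COL4A2 sit near 0 in TG1 and at 1.58 and 0.79 in TG2, and COL6A1 and COL6A2 are high in WT2 and TG1 and low in WT1 and TG2.

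Transmembrane collagens carry their triple helix outside the cell and can be shed. COL25A1, the gene of the plaque-associated collagen, was at 20.7 and 24.5 CPM in the WT libraries and at 20.9 and 28.9 CPM in the TG libraries. TG1 lay between the wild-type libraries and TG2 above both. The log2 fold change was 0.14 ± 0.23 (SE over 2 and 2 libraries; adjusted p = 0.878) with a 95% interval of -0.43 to 0.71. It was 0.35 without TG1 and -0.12 without TG2. COL23A1 had the smallest p of all collagen genes, at 5.57 and 7.61 CPM in the WT libraries and at 10.9 and 9.80 CPM in the TG libraries. Its groups did not overlap, and its log2 fold change was 0.65 ± 0.27 (SE), with 0.57 without TG1 and 0.73 without TG2. The unadjusted p in edgeR was 0.0566 and the adjusted p 0.789. COL13A1 was at 0.619 and 0.804 CPM and at 1.84 and 0.831 CPM, so that TG2 lay just above WT2 and only TG1 stood clear of the wild type.

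The other collagen linked to plaques, COL18A1, encodes a proteoglycan of vascular basement membranes whose end fragment is endostatin. It was at 9.83 and 12.4 CPM in the WT libraries and at 16.8 and 5.32 CPM in the TG libraries, with TG1 the highest library and TG2 the lowest. The log2 fold change over both was -0.01 ± 0.55 (adjusted p = 0.998), and it was 0.60 without TG2 and -1.06 without TG1 (adjusted p = 0.0555). COL15A1, its relative in the same class, had 14 and 3 counts in wild type and 11 and 8 in transgenic cortex, which is close to the floor.

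Collagens that decorate fibrils (the FACIT class) had 7 of 10 genes tested, 3 higher and 4 lower in sign. COL9A2 was at 21.8 and 19.5 CPM in the WT libraries and at 19.5 and 13.1 CPM in the TG libraries. TG1 lay just below WT2, at 19.48 against 19.53 CPM, a gap smaller than that between WT1 and WT2 (log2 fold change -0.345 ± 0.25 SE; adjusted p = 0.798). COL9A3, a chain of the same trimer, was at 7.35 and 6.73 CPM and at 8.16 and 3.16 CPM, low in TG2. COL19A1, which cortical interneurons make and which takes part in forming inhibitory synapses, was at 5.73 and 8.12 CPM in the WT libraries and at 7.79 and 5.81 CPM in the TG libraries (adjusted p = 0.985). COL12A1 was at 5.11 and 7.82 CPM and at 7.496 and 6.76 CPM, and COL16A1 at 4.95 and 7.24 CPM and at 7.86 and 4.98 CPM. For neither did the groups separate. COL14A1, which binds the fibril surface, was at 3.02 and 1.46 CPM in the WT libraries and at 3.31 and 3.66 CPM in the TG libraries, with 20 to 66 counts (adjusted p = 0.797). COL20A1 was at 2.24 and 2.85 CPM and at 1.84 and 2.05 CPM (adjusted p = 0.816).

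Of the short-chain network collagens, COL8A1 was at 8.20 and 10.5 CPM in the WT libraries and at 9.04 and 11.3 CPM in the TG libraries, with the groups interleaved. COL8A2, the second chain of type VIII, was at 0.387 and 1.24 CPM and at 1.98 and 0.886 CPM. COL26A1 was at 11.1 and 10.97 CPM in the WT libraries and at 11.3 and 20.3 CPM in TG1 and TG2. TG2 alone stood clear of the other 3 libraries, and the log2 fold change of 0.52 ± 0.32 (adjusted p = 0.789) was 0.03 without TG2. COL28A1, a collagen described around Schwann cells of peripheral nerve, was the steadiest of the 33 genes, at 21.97 and 21.7 CPM in the WT libraries and at 20.8 and 18.7 CPM in the TG libraries.

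The 11 genes that did not pass the filter had 1 to 28 counts. They were COL2A1, COL11A2, COL4A5, COL4A6, COL6A5, COL7A1, COL9A1, COL10A1, COL17A1, COL21A1 and COL22A1. In 6 of them at least 1 library was at or under 3 counts. The other 5 were above 3 counts in every library. DESeq2 and the edgeR fit with no low-count filter took in all 44 collagen genes and called 0 of them. At an unadjusted p under 0.05 they had 1 and 2 collagen genes. Over all genes they had 892 and 1535 there, with 22411 and 27054 genes tested.

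**Figure D4:**
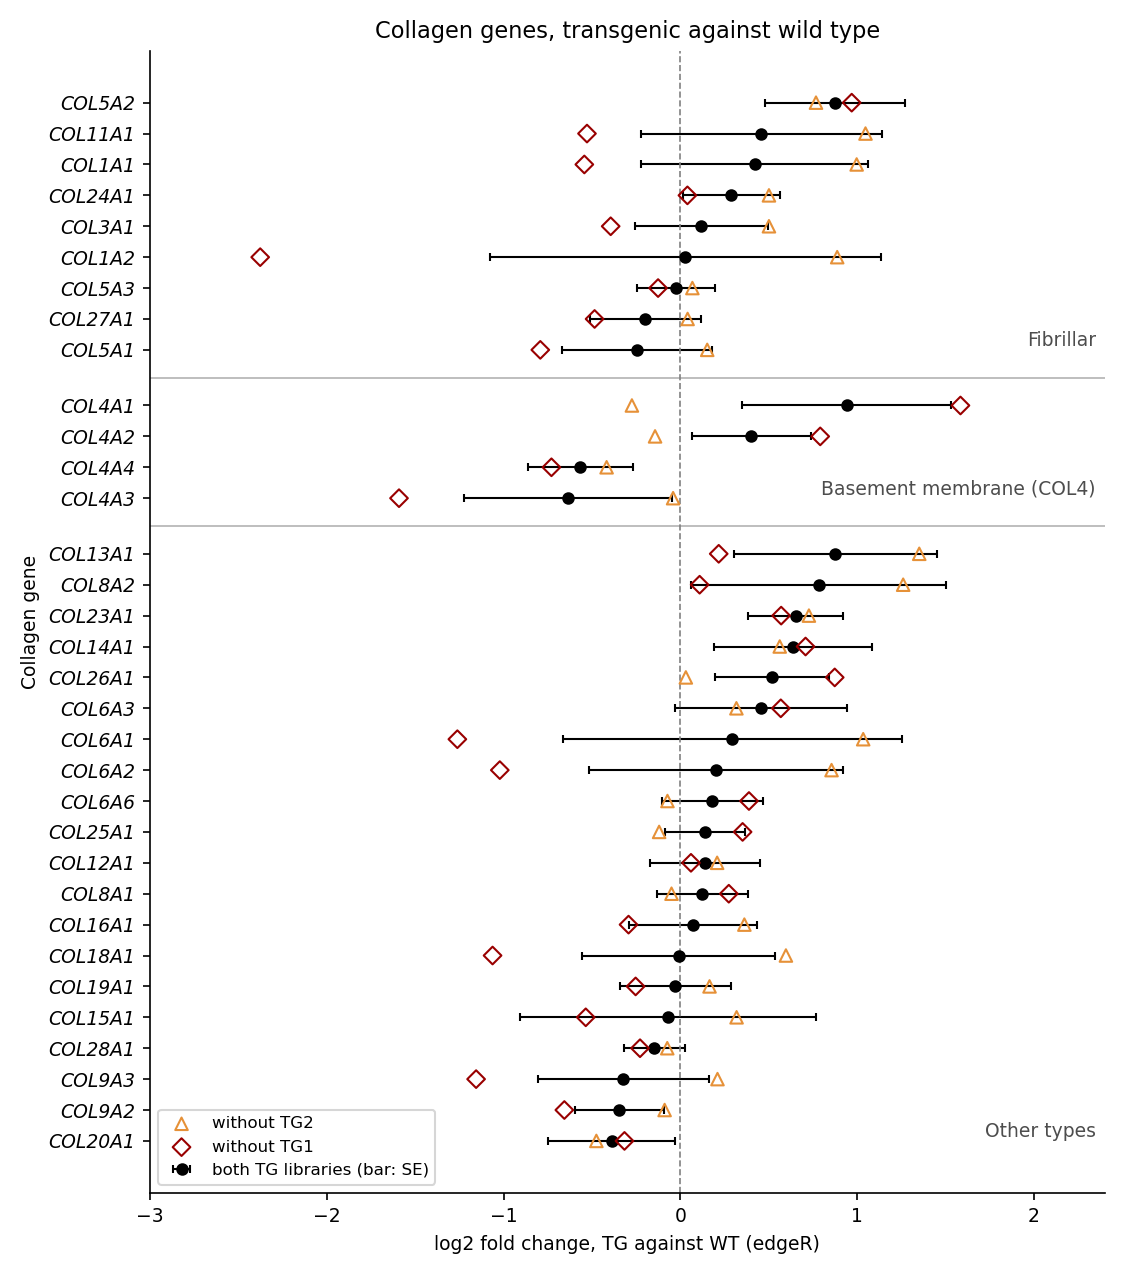
Log2 fold change of each of the 33 collagen genes tested, transgenic against wild type (x axis), from the fit of all 4 libraries (black points, bars are the SE), without TG2 (triangles) and without TG1 (diamonds). For COL1A2, COL6A1, COL6A2, COL18A1, COL4A1 and COL4A2 the triangles and diamonds fall on opposite sides of 0, while COL5A2, COL23A1 and COL14A1 lie to the right of 0 in all 3 fits.

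Genes that modify, cross-link and process collagen chains were counted from a list of 33, of which 31 were tested. By sign 16 were higher and 15 lower, the median log2 fold change was 0.05 and 0 passed the adjusted threshold. LOXL3, of the lysyl oxidase family, was at 34.5 and 45.1 CPM in the WT libraries and at 25.2 and 27.7 CPM in the TG libraries. P3H2, a prolyl 3-hydroxylase that acts on type IV collagen, was at 3.405 and 6.95 CPM and at 1.40 and 2.27 CPM. The lysyl hydroxylase gene PLOD1 was at 19.7 and 21.4 CPM and at 14.85 and 14.95 CPM. In each of these 3 neither transgenic library reached the lower wild-type one (unadjusted p of 0.0264, 0.0275 and 0.0468, adjusted p = 0.789 for each). No other gene of the 31 was under an unadjusted p of 0.05, a threshold that 5.62% of all genes passed and 2.39% passed as lower. The more frequent separation was upward: both TG libraries lay above both WT libraries in 10 of the 31 (background 19.5%) and below in 4 (background 19.4%). The log2 fold changes of LOXL3, P3H2 and PLOD1 were -0.52, -1.19 and -0.46 without TG1 and -0.66, -1.89 and -0.47 without TG2. SERPINH1, the collagen chaperone HSP47, was at 8.05 and 11.3 CPM and at 12.1 and 4.15 CPM, with TG2 the lowest. PXDN, the peroxidase that cross-links type IV collagen, was at 2.94 and 2.34 CPM and at 3.53 and 3.54 CPM.

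Of 11 collagen receptor genes 9 were tested, with 3 higher and 6 lower in sign, a median of -0.24 and 0 past the threshold. ADGRG1, which encodes the cortical receptor of type III collagen, was at 133.8 and 118 CPM in the WT libraries and at 104 and 80.6 CPM in the TG libraries (log2 fold change -0.45 ± 0.17 SE over 2 and 2 libraries; adjusted p = 0.789). The integrin β1 gene ITGB1 was at 82.7 and 81.5 CPM and at 73.05 and 66.2 CPM, again without overlap. The discoidin receptor gene DDR1 was at 88.6, 85.1 and 90.1 CPM in WT1, WT2 and TG1 and at 55.8 CPM in TG2. ITGA10 was at 1.39, 2.41, 8.23 and 1.77 CPM, high in TG1 alone. Of the 9, 0 lay above and 3 below without overlap, the other one being ITGA1 (background 19.5% and 19.4%). TG2 was also the lowest library for 9 of 10 astrocyte and 7 of 8 oligodendrocyte markers (background 35.5%), while GFAP and MAG were lowest in WT2. Summed oligodendrocyte levels were 3234, 2530, 3147 and 1156 CPM in WT1, WT2, TG1 and TG2. The part of these cell types in the receptor values was not tested. Without TG1, ADGRG1 and DDR1 passed as lower (adjusted p = 0.0360 and 0.0317), which is 2 of 9, in a fit where 9.92% of all genes passed and 5.4% passed as lower.

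Collagen turnover genes, the matrix metalloproteinases and their inhibitors, had 10 of 14 tested, with 6 higher and 4 lower in sign, a median of 0.30 and 0 past the threshold. MMP3, a protease that cuts type IV collagen among other substrates, was at 1.08 and 0.219 CPM in the WT libraries and at 0.661 and 7.70 CPM in TG1 and TG2. It was high in TG2 alone, and passed without TG1 (log2 fold change 3.56, adjusted p = 0.0118), where 1 of 11 turnover genes passed as higher and 2 as lower (background 4.52% and 5.4%). The inhibitor gene TIMP4 was at 1.93 and 1.32 CPM and at 0.955 and 0.609 CPM. The membrane protease gene MMP16 was at 18.2 and 22.4 CPM and at 30.1 and 24.1 CPM. Neither TIMP4 nor MMP16 overlapped between groups (adjusted p = 0.789 for each). With TIMP2 and MMP15, 2 of 10 lay above and 2 below, near the 19.5% and 19.4% of all genes.

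The 16 basement membrane partners, mostly laminin chains, were all tested, with 6 higher and 10 lower in sign, a median of -0.12 and 0 past the threshold. SPARC, a secreted protein that binds collagens, was at 271.5 and 262 CPM in the WT libraries and at 181 and 110.3 CPM in the TG libraries. Its log2 fold change was -0.88 ± 0.25 (SE), with an unadjusted p of 0.0152 and an adjusted p of 0.789 in edgeR. The laminin chain gene LAMA5 was at 10.4 and 7.75 CPM and at 5.59 and 3.82 CPM. LAMB1 was at 39.7 and 49.5 CPM and at 55.0 and 57.8 CPM. These 3 did not overlap between groups, with LAMB1 on the higher side. With AGRN above and LAMA3 below, 2 of 16 lay above and 3 below, which did not exceed the 19.5% and 19.4% of all genes. HSPG2, the gene of perlecan, was at 7.20 and 6.44 CPM and at 6.84 and 4.76 CPM. Without TG1, SPARC and LAMA5 passed as lower (adjusted p = 0.00215 and 0.0489), in the fit where COL4A1 and COL4A2 passed as higher. In that fit 4 of the 16 partners passed as lower and 0 as higher, against 5.4% and 4.52% of all genes.

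The fibril partners, proteoglycans and glycoproteins that bind collagen fibres, had 14 of 15 tested, with 10 higher and 4 lower in sign and a median log2 fold change of 0.61. None passed in the fit of all 4 libraries, and their log2 CPM lay at a median of 1.18 above the WT mean in TG1 and at -0.59 in TG2. Both TG libraries lay above both WT libraries in 3 of the 14 and below in 2 (background 19.5% and 19.4%). THBS2 was at 16.6, 50.7, 15.9 and 9.69 CPM in WT1, WT2, TG1 and TG2. FBLN2 was at 3.79 and 3.36 CPM in the WT libraries and at 8.67 and 4.60 CPM in the TG libraries. The fibril proteoglycan gene LUM was at 3.02 and 2.85 CPM and at 6.76 and 3.82 CPM. Their unadjusted p in edgeR lay between 0.0531 and 0.0785. TG2 was the lowest library for 8 of the 14 and the highest for 1 (background 35.5% and 35.1%). The latter was THBS1, named after its values were seen, at 3.17, 4.10, 3.90 and 15.7 CPM in WT1, WT2, TG1 and TG2.

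**Figure D5:**
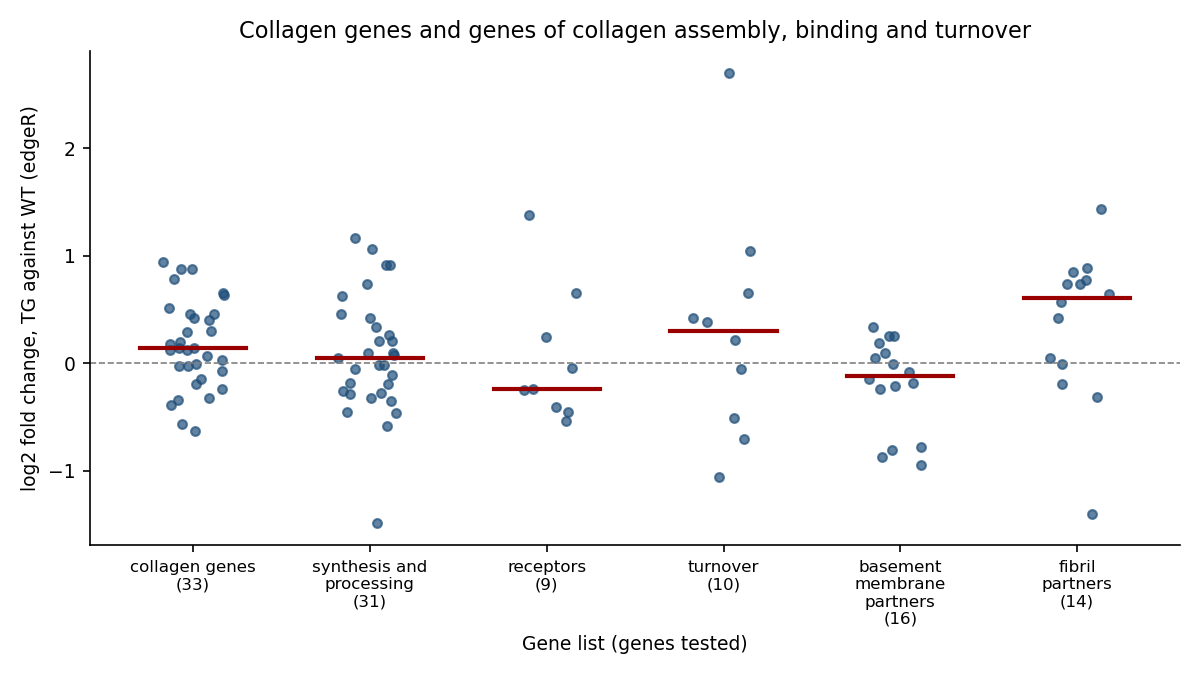
Log2 fold change, transgenic against wild type (y axis), for the collagen genes and 5 lists of genes of collagen assembly, binding and turnover (x axis, genes tested in brackets), with 1 point per gene, a red bar at the list's median and a dashed line at the median of all genes (-0.002). Medians lie between -0.24 for the receptors and 0.61 for the fibril partners, and no gene shown passed the adjusted threshold.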

How the data were processed

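The authors deposited a table of raw read counts, named by them as STAR counts, with 1 row per gene symbol and a column for each library. Tools listed by the submitters' processing notes are kallisto 0.46.2, STAR 2.5.3a and featureCounts 1.5.2, with no role stated there. Per the labels' protocols, RNA came from an RNeasy Mini Kit and libraries from KAPA Hyper chemistry. Genome build, annotation and strand setting were not given in the sources used here. Without strand, reads of overlapping genes cannot be separated.

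Genes were filtered with filterByExpr (16385 of 35108 kept) and scaled by TMM. The test was edgeR 4.0.16 (quasi-likelihood, R 4.3.3) with genotype as the only term and 2 residual degrees of freedom. Benjamini-Hochberg adjustment ran over every gene kept. An SE is the absolute log2 fold change over the square root of F. Log2 CPM used a prior count of 2. Alternatives were DESeq2 1.42.0, limma-voom (limma 3.58.1), other scalings and filters, a replicate block and each library left out. The library pair closest in counts still differed by a chi-square per degree of freedom of 8.25, so each library was counted once.

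The members and gene lists were chosen with earlier results of these data known. Genes named by rule were APP, all COL4 genes, a fixed set of other collagens, the 3 smallest p per direction in the fibrillar and other classes, the 3 smallest p of each partner list and 6 fixed partners. COL6A6, COL8A2 and COL9A3 were added as members after their values were seen.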

Additional observations from a re-analysis of the deposited data

How the results depend on the processing

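With 2 libraries per group, the count of 0 collagen genes past the threshold held under DESeq2, limma-voom, RLE scaling, library totals, both other filters and the replicate block, and changed only without TG1. The range over the 4 fits that each left out a library was 0 to 3 for collagen genes and 0 to 1710 for all genes (3 without TG2). For all genes DESeq2 called 46 and the fit with no low-count filter 5. The median log2 fold change ranged from -0.25 to 0.27 for all collagen genes and from -0.49 to 0.50 for the fibrillar genes when a library was left out. The COL4 median was 0.39 with a minimum mean count of 50, where 3 COL4 genes were left. Same-numbered libraries did not deviate together (r = -0.14 across genes). The replicate block called 0 genes, and a block with the numbers crossed, chosen after seeing the data, also called 0.

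Signs turned for COL18A1 under DESeq2 (0.002) and, under limma-voom, for COL1A2 (-0.55), COL6A2 (-0.031) and COL15A1 (0.22). With the replicate block they turned for COL1A2 (-0.36) and COL15A1 (0.14), and with the block crossed for the same genes (-0.34 and 0.042). No such change was tested for its cause. For the count given next, the share over all genes is not given here, so it cannot be read as particular to collagen genes. Leaving out 1 library turned the sign of 21 of the 33 collagen genes tested and of 4 named partners, given with their lowest and highest value: COL4A1 (-0.27 to 1.58), COL4A2 (-0.14 to 0.79), COL1A1 (-0.54 to 1.14), COL1A2 (-2.38 to 1.43), COL3A1 (-0.39 to 0.50), COL5A1 (-0.79 to 0.18), COL5A3 (-0.21 to 0.18), COL11A1 (-0.53 to 1.24), COL27A1 (-0.49 to 0.041), COL6A1 (-1.26 to 1.76), COL6A2 (-1.02 to 1.04), COL6A3 (-0.05 to 1.23), COL6A6 (-0.073 to 0.39), COL8A1 (-0.05 to 0.31), COL9A3 (-1.16 to 0.21), COL12A1 (-0.14 to 0.48), COL15A1 (-0.80 to 1.45), COL16A1 (-0.29 to 0.38), COL18A1 (-1.06 to 0.60), COL19A1 (-0.26 to 0.25), COL25A1 (-0.12 to 0.35), ITGA10 (-0.11 to 2.10), SERPINH1 (-1.22 to 0.32), DDR1 (-0.64 to 0.05) and HSPG2 (-0.52 to 0.001).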

Other observations

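A few genes outside the rule for named genes were chosen after their values were seen. COL7A1, the anchoring fibril collagen of skin, had 4, 6 and 6 counts in WT1, WT2 and TG1 and 28 in TG2, and did not pass the filter on low counts. PCOLCE, which speeds the trimming of type I procollagen, was at 0.928, 7.24, 13.2 and 2.44 CPM in WT1, WT2, TG1 and TG2. The fibril proteoglycan gene OGN was at 0.851, 6.80, 10.8 and 0.720 CPM and the collagen receptor gene DDR2 at 0.851, 2.63, 3.60 and 0.609 CPM. All 3 of these were highest in TG1 and next highest in WT2, as COL1A2 was. TIMP3, a metalloproteinase inhibitor held in the matrix, was at 130.8, 128 and 138 CPM in WT1, WT2 and TG1 and at 44.1 CPM in TG2, and FN1, the gene of fibronectin, at 46.4, 59.8, 86.4 and 19.3 CPM. LAMB2, a laminin chain of vascular basement membranes, was at 17.1, 16.9, 23.6 and 5.87 CPM, lowest in the library where COL4A1 was highest. Of the 16 basement membrane partners, TG2 was the lowest library for 11 (background 35.5%). It was the highest for 4, which were LAMB1, AGRN, LAMC1 and LAMB3 (background 35.1%).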
